A study of Danio rerio with 32 samples.

Results

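The growth hormone, insulin-like growth factor (IGF) and leptin axis was followed in whole zebrafish larvae through 10 named genes: gh1, ghra, ghrb, igf1, igfbp1a, igfbp1b, igfbp2a, lepa, lepb and lepr. The genes were chosen by name, with earlier results of these data known. Of the 10, 9 matched 1 gene each among the 32520 genes of the count tables. The tables write igf1 as IGF1 and igfbp1a as IGFBP1. igfbp2a could not be told apart between 2 genes that the tables both name IGFBP2, ENSDARG00000031422 and ENSDARG00000052470, so both are described by identifier and neither is counted among the 9 members.

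Growth hormone is released by the pituitary and acts through receptors of the cytokine type, which signal through JAK2 and STAT5 and induce IGF-1, mainly in liver. IGF-binding proteins hold IGFs in the circulation and set how much reaches the IGF receptor, and binding protein 1 is known in zebrafish and mammals to rise with fasting and with low oxygen. Leptin reports energy stores through its receptor in mammals, where fat makes it, while fish have 2 leptin genes for which fat is not the main source.

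Messenger RNA was sequenced from whole larvae at 20 days after fertilization in 2 experiments, analysed separately. Experiment 1 held the strain EK and larvae with the pllp alleles pd1116 or pd1245, fed either high protein (HP) or low protein (LP), and its 6 groups had 3 libraries each. According to the series text, pd1245 is the newer mutation, whose carriers survive poorly when nutrition is restricted, and the older pd1116 has adapted to such restriction. Experiment 2 held EK and a pd1245 line described as adapted, with 3 libraries per group on HP and 4 on LP. pllp encodes plasmolipin, a membrane protein of gut epithelium. The labels do not give the change in the gene that each allele carries or the zygosity of the larvae. The number of larvae in a library is not in the labels, nor whether libraries come from separate clutches or tanks, so each p measures the spread between libraries of unknown independence.

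Libraries of experiment 1 held 19838912 to 29147958 gene counts and those of experiment 2 held 3713048 to 12929536, the smallest being replicate 2 of EK on HP. pllp itself was lower in every mutant group mean: in experiment 1 it was 11.9 ± 0.597 CPM (CPM being the share of a library's counts after TMM scaling; SD, n = 3) in EK on HP and 15.1 ± 2.17 in EK on LP, against 5.50 ± 1.89 in pd1245 on LP. In experiment 2 it was 30.7 ± 6.33 CPM (SD, n = 4) in EK on LP and 6.90 ± 0.845 in adapted pd1245 on LP. Replicate 3 of pd1245 on LP in experiment 1 stood apart: ribosomal protein genes took 14.02% of its counts, against at most 8.80% in the other 17 libraries, and its TMM scaling factor was 0.832. Calls of members and of both IGFBP2 genes that include that library are therefore given with and without it, as are the counts of the gene lists, for which leaving it out was chosen after seeing the data. CPM is not scaled by transcript length, so levels are compared only within a gene. In whole larvae, fewer cells of a type and less RNA per cell cannot be told apart.

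In experiment 1, the members that passed the test (edgeR's quasi-likelihood test, adjusted p below 0.05 over all 22742 genes tested) were mostly in mutant larvae on LP. On LP, with all libraries, 5 of the 9 members were higher in pd1245 than in EK (ghrb, igfbp1a, igfbp1b, lepb and lepr) and none was lower, where 31.8% of all genes were called. With all libraries the median log2 fold change was 0.80 over the members, which is the value of igfbp1a, and 0.01 over all genes. Without replicate 3 of pd1245 on LP, ghrb, igfbp1b and lepb stayed called higher, where 27.4% of all genes were called. The median over the members is not given for that fit. The calls of igfbp1a and lepr were then lost, and igf1 was called lower. LP against HP gave 4 calls in pd1116 (ghrb, igfbp1a and igfbp1b higher, igf1 lower, with 6.79% of all genes called) and 3 in pd1245 (ghrb, igfbp1b and lepb higher, with 19.1%). The lepb call in pd1245 was lost without replicate 3 on LP, where 11.6% of all genes were called. In EK the same diets gave 0 calls among members by edgeR and 0 by DESeq2, where edgeR called 0.154% of all genes. At an unadjusted edgeR p under 0.05 there were 2 members, and 1796 of the 22742 genes.

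Comparing genotypes, pd1116 against EK gave 2 calls on LP (ghrb and igfbp1b higher, with 6.68% of all genes called). On HP it gave 0 by edgeR and 1 by DESeq2, where edgeR called 2.9% of all genes. At an unadjusted edgeR p under 0.05 there were 1 member and 3030 of the 22742 genes. pd1245 against EK on HP gave 1 call (igf1 lower, with 4.16%). pd1245 against pd1116 gave 2 calls on HP (ghrb higher and igf1 lower, with 11.9%) and 1 on LP (ghrb higher, with 20.2%). These comparisons share libraries, so their counts are not independent of each other.

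The diet response itself differed between pd1245 and EK for 2 members, ghrb and lepb, where 5.7% of all genes were called. Between pd1116 and EK it differed for 0 members by edgeR and 0 by DESeq2, with 0.0044% of all genes called by edgeR. At an unadjusted edgeR p under 0.05 there were 3 members and 2600 of the 22742 genes. Between pd1245 and pd1116 the numbers were 0 by edgeR, 2 unadjusted and 0 by DESeq2. Over all genes, 0.616% were called by edgeR and 3595 of 22742 had an unadjusted p under 0.05.

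In experiment 2, 7 of the 9 members had enough counts to test among 16671 genes. LP against HP in adapted pd1245 gave 2 calls, ghrb and igfbp1b, both higher, where 1.88% of all genes were called, and DESeq2 called 3 members. In EK it gave 0 by edgeR and 0 by DESeq2, where edgeR called 0.078% of all genes. At an unadjusted edgeR p under 0.05 there were 4 members and 1910 of the 16671 genes. Adapted pd1245 against EK gave 0 on HP (2 unadjusted, 0 by DESeq2, with 1.44% of all genes called) and 0 on LP (1 unadjusted, 0 by DESeq2, with 2.36%). Over all 16671 genes, 2274 on HP and 1806 on LP had an unadjusted edgeR p under 0.05. The difference of the diet responses was called for 0 members and for 0% of all genes by edgeR, with 3 members and 894 genes at an unadjusted p under 0.05, and DESeq2 called 0 members and 1 gene.

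**Figure D1:**
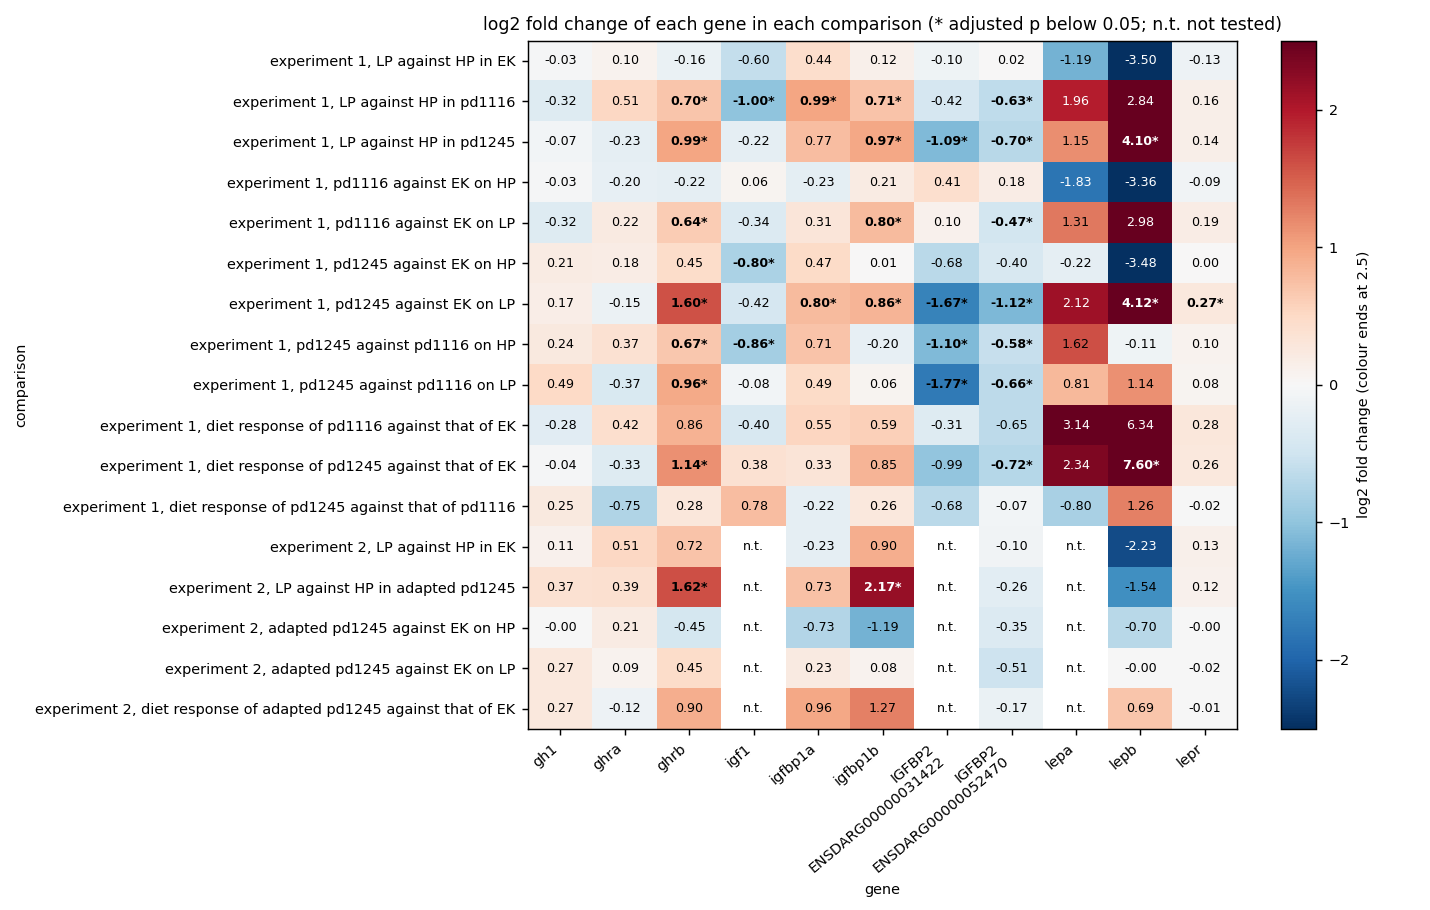
The heat map gives the log2 fold change of each gene (columns) in each comparison (rows), from red (higher in the group named first) to blue (lower), with an asterisk where the adjusted p is below 0.05 and n.t. where counts were too low to test. The ghrb column holds the most asterisks, and the row of pd1245 against EK on LP holds 5 among the 9 members.

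gh1, the growth hormone gene, was close to level. In experiment 1 its group means ran from 14.6 ± 2.28 CPM (SD, n = 3) in pd1116 on LP to 21.5 ± 4.43 in pd1245 on HP, and the ranges of neighbours in that order overlapped throughout. In experiment 2 they ran from 38.3 ± 4.21 CPM (n = 3) in adapted pd1245 on HP to 49.6 ± 14.3 (n = 4) in adapted pd1245 on LP. gh1 passed in none of the 17 comparisons; pd1245 against pd1116 on LP had its smallest unadjusted p in edgeR, 0.0285, with a log2 fold change of 0.49 ± 0.21 (SE) and an adjusted p of 0.0987. Without replicate 3 of pd1245 on LP that difference was 0.66 with an adjusted p of 0.0327.

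In the list of hypothalamic and pituitary control, 5 of 25 genes tested were higher and 1 lower in pd1245 than in EK on LP. That is 24% of the list, below the 31.8% of all genes called. Its median log2 fold change was 0.32 against 0.01 over all genes. Without replicate 3 of pd1245 on LP it was 0.16, where 6 of 26 were higher and 1 lower (26.9% against 27.4% of all genes). agrp, the hunger neuropeptide of the hypothalamus, was 2.78 ± 0.134 CPM (SD, n = 3) in pd1245 and 0.878 ± 0.360 in EK, a log2 fold change of 1.66 ± 0.33 (adjusted p = 0.00121; 1.62 without that library, adjusted p = 0.00254). ghrhra, a receptor for growth hormone-releasing hormone, rose by 1.04 ± 0.25 on the log2 scale (adjusted p = 0.00501), and ghrl, the gut hormone ghrelin, fell by 0.92 (SE 0.23, adjusted p = 0.00498). The summed level of the 11 pituitary marker genes was 8.02 to 10.4 CPM in EK on LP and 6.61 to 15.3 in pd1245 on LP. Of the 6 markers tested, 1 was called, 16.7% against 31.8% of all genes. It was POU1F1, the pituitary transcription factor (log2 fold change 1.91 ± 0.53, adjusted p = 0.0105). POU1F1 was scarce, with 3 to 20 counts per library in experiment 1. Without replicate 3 of pd1245 on LP, 1 of 7 markers was called, 14.3% against 27.4% of all genes. In experiment 2, prl, the prolactin gene, was the 1 marker of 3 tested that was called on LP against HP in adapted pd1245 (1.08 ± 0.27, adjusted p = 0.0456). That is 33.3% against 1.88% of all genes. The part of pituitary content in these results was not tested.

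ghrb, one of the pair of growth hormone receptors, changed in more comparisons than any other member. In experiment 1 its level in pd1245 on LP was 66.4, 88.7 and 96.5 CPM. In EK it was 32.2, 31.2 and 29.3 CPM on HP and 30.9, 24.4 and 27.7 on LP. In pd1245 on HP it was 35.1, 57.8 and 34.3 CPM. All 3 libraries of pd1245 on LP therefore lay above every other library of the experiment, and pd1245 on HP lay above both EK groups. In pd1116 it was 26.2, 26.7 and 26.8 CPM on HP and 33.3, 52.6 and 43.7 on LP, with no overlap between the diets.

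On LP, ghrb was 3.03-fold higher in pd1245 than in EK (log2 fold change 1.60 ± 0.19 SE, edgeR adjusted p = 2.49e-05), and without replicate 3 of pd1245 on LP the log2 fold change was 1.48 (adjusted p = 4.25e-05). It was 1.94-fold higher than in pd1116 on the same diet (0.96 ± 0.18, adjusted p = 0.00195; 0.84 without that library, adjusted p = 0.00647). On LP against HP it was 1.98-fold higher in pd1245 (0.99 ± 0.18, adjusted p = 0.00243; 0.87 without replicate 3 on LP, adjusted p = 0.00695), and the call was lost when only those 6 libraries were fitted (adjusted p = 0.105), as were all calls of that comparison. In pd1116 it rose 1.63-fold (0.70 ± 0.19, adjusted p = 0.0286), and the call was lost without any 1 of replicates 1, 2 and 3 on HP or 2 and 3 on LP (adjusted p = 0.0899, 0.0807, 0.099, 0.136 and 0.0874).

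The pd1116 call against EK on LP was the thinnest for ghrb. Its log2 fold change was 0.64 ± 0.19 (adjusted p = 0.0434), and leaving out any single library of EK on HP, EK on LP or pd1116 on HP ended it, as did leaving out replicate 2 or 3 of pd1116 on LP (adjusted p = 0.0527 to 0.199 over these 11 fits). On HP, ghrb was higher in pd1245 than in pd1116 by 0.67 ± 0.18 (adjusted p = 0.0229), a call lost without replicate 2 of pd1245 (0.38, adjusted p = 0.187) or any 1 of the pd1116 libraries (adjusted p = 0.0723, 0.0662 and 0.0703). The difference of diet responses between pd1245 and EK was 1.14 ± 0.26 (adjusted p = 0.0186; 1.03 without replicate 3 of pd1245 on LP, adjusted p = 0.0257). It was lost without replicate 2 of EK on LP (1.05, adjusted p = 0.0659) or replicate 3 of pd1245 on HP (1.00, adjusted p = 0.0661).

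Experiment 2 measured ghrb again in EK and in the adapted line. In adapted pd1245 it was 8.68, 10.5 and 7.25 CPM on HP and 26.2, 32.0, 23.8 and 26.0 on LP, with no overlap. In EK it was 7.84, 16.6 and 12.7 CPM on HP and 17.8, 27.7, 16.3 and 16.9 on LP. The rise in adapted pd1245 was 3.07-fold (1.62 ± 0.23, adjusted p = 0.00259) and held under every alternative tried. In EK the log2 fold change was 0.72 ± 0.23 (edgeR unadjusted p = 0.00599, adjusted p = 0.23). The diets overlapped there only through replicate 2 on HP, at 16.6 CPM against a lowest value of 16.3 on LP. That library held 3713048 gene counts, the fewest of the experiment. The difference of the 2 diet responses, 0.90 ± 0.32, had an unadjusted p of 0.0116 and an adjusted p of 0.857 and was not called.

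ghra, the other receptor, was called in no comparison. Its group means were 9.25 ± 1.18 CPM (SD, n = 3) in pd1116 on HP to 13.2 ± 0.600 in pd1116 on LP in experiment 1, and neighbours in the order overlapped. Its largest diet difference was in pd1116, 0.51 ± 0.18 (edgeR adjusted p = 0.0966), with no overlap, and that passed when only the groups compared were fitted (adjusted p = 0.0107) and without replicate 3 of pd1245 on LP (adjusted p = 0.00331). Without the same library, ghra was also called higher in pd1245 than in pd1116 on HP (0.37, adjusted p = 0.0178). Leaving that library out also raised the share of all genes called, from 6.79% to 15.2% in the first comparison and from 11.9% to 19.8% in the second. In experiment 2 the LP means were 8.42 ± 1.28 CPM in EK (n = 4) and 8.98 ± 0.951 in adapted pd1245 (n = 4), against 5.92 ± 0.143 and 6.83 ± 0.939 on HP (n = 3). Neither diet difference passed (adjusted p = 0.245 and 0.185).

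**Figure D2:**
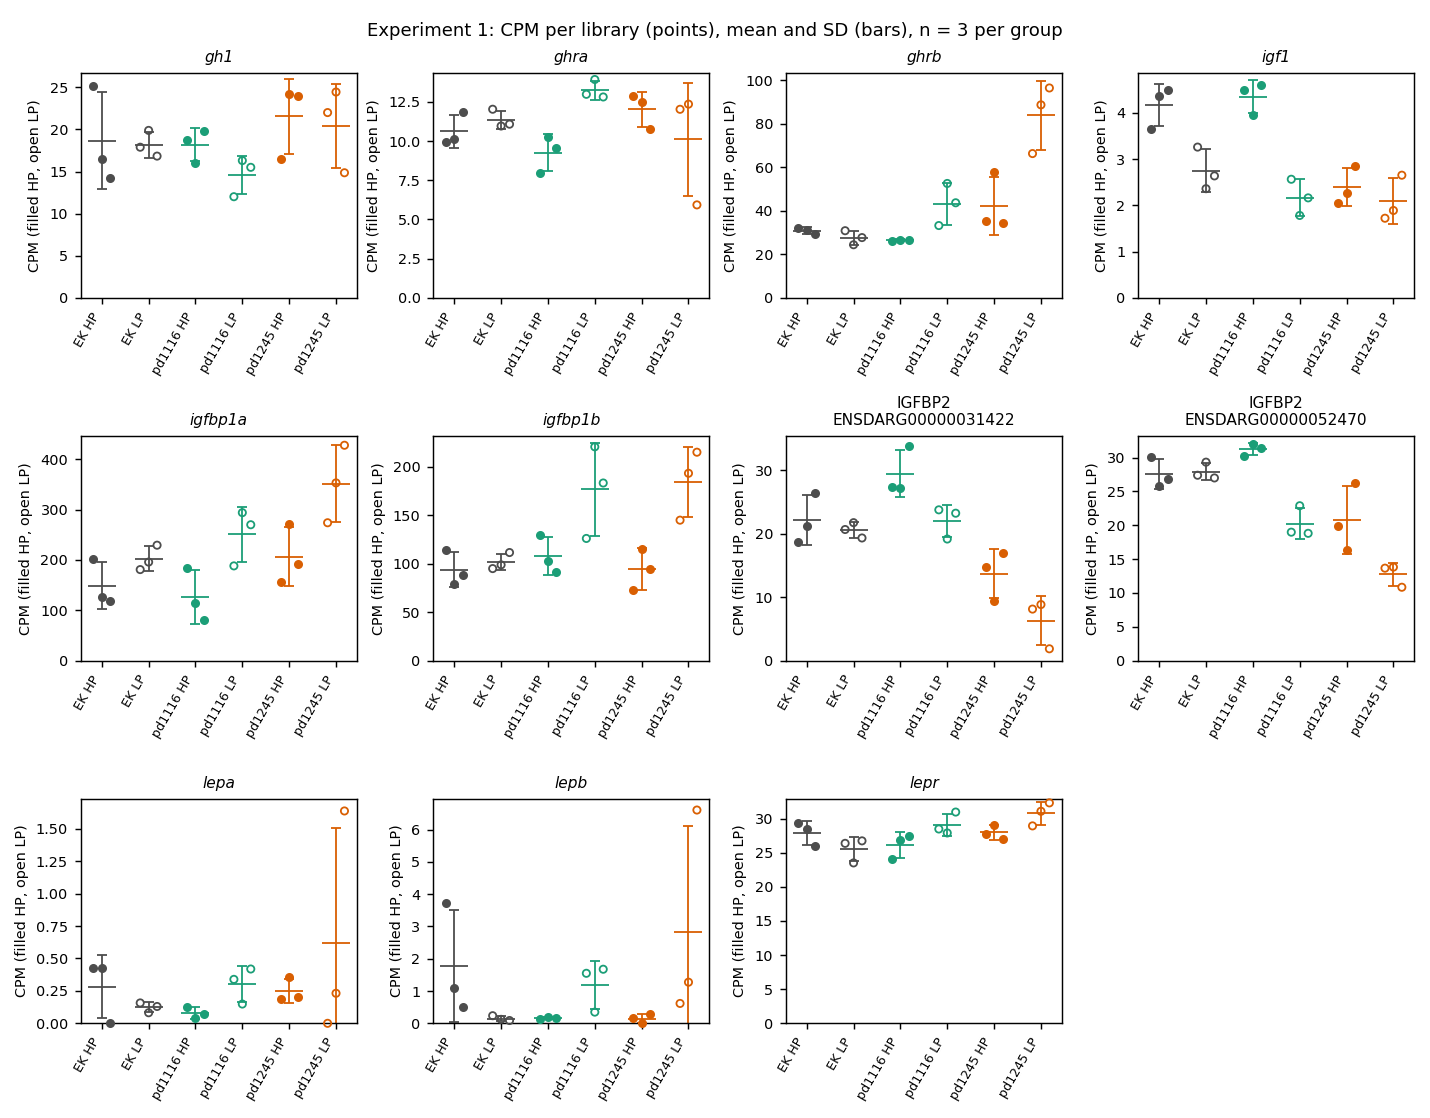
Each panel plots CPM per library (points, filled on HP and open on LP) for 1 gene in the 6 groups of experiment 1, with the mean and SD as bars. ghrb, igfbp1a and igfbp1b are highest in mean in pd1245 on LP, both IGFBP2 genes are lowest there, and lepb and lepa have single libraries far above the rest.

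SOCS2 and CISH, the STAT5-induced feedback inhibitors of growth hormone signalling, were higher in pd1245 than in EK on LP. In the whole receptor signalling list, 7 of 25 genes tested were higher and 1 lower, which is 32% of the list, near the 31.8% of all genes called. The median log2 fold change was 0.20 against 0.01 over all genes. Leaving out replicate 3 of pd1245 on LP gave 9 higher and 0 lower, 36% of the list against 27.4% of all genes. SOCS2 was 41.0 ± 13.0 CPM (SD, n = 3) against 14.3 ± 1.23 (1.53 ± 0.23, adjusted p = 0.000141; 1.61 without that library, adjusted p = 0.000118). CISH was 49.6 ± 29.9 against 10.6 ± 2.37 (2.22 ± 0.35, adjusted p = 0.000201; 1.64 without that library, adjusted p = 0.000348). IRS2 (ENSDARG00000075282), the insulin receptor substrate, was higher by 0.65 ± 0.11 (adjusted p = 0.000306). LP against HP in pd1116 called 1 of 25, IRS2 at 0.47 ± 0.11 (adjusted p = 0.0139), and in pd1245 8 higher and 1 lower (4% of the list against 6.79% of all genes, and 36% against 19.1%). When that library was left out these were 7 higher and 1 lower in pd1116, and 6 higher and 0 lower in pd1245. The shares were then 32% of the list against 15.2% of all genes in pd1116, and 24% against 11.6% in pd1245. In adapted pd1245, 3 of 23 were higher on LP (13% against 1.88% of all genes), CISH at 1.49 ± 0.23 (adjusted p = 0.00386), IRS2 at 0.80 ± 0.16 (adjusted p = 0.0195) and SOCS1 at 1.05 ± 0.23 (adjusted p = 0.0266).

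igf1 was low in every group. In experiment 1 it was 3.65, 4.38 and 4.50 CPM in EK on HP, 4.51, 3.95 and 4.60 in pd1116 on HP, and 2.06, 2.26 and 2.86 in pd1245 on HP. On LP it was 3.26, 2.36 and 2.64 CPM in EK, 2.57, 1.78 and 2.16 in pd1116, and 1.72, 1.89 and 2.65 in pd1245. EK and pd1116 on HP lay above all the other groups, and pd1245 on HP overlapped all 3 groups on LP.

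The fall of igf1 in pd1116 from HP to LP was 2.00-fold (SE 0.19 on the log2 scale, adjusted p = 0.00452) and held under every alternative tried. In EK the difference was -0.60 ± 0.19 with no overlap, but did not pass (adjusted p = 0.311). On HP, pd1245 was lower than pd1116 (-0.86 ± 0.19, adjusted p = 0.00559) under every alternative tried, and lower than EK (-0.80 ± 0.19, adjusted p = 0.0215). The call against EK was lost without replicate 2 or 3 of EK on HP (adjusted p = 0.0904 and 0.0741) or replicate 1 or 2 of pd1245 on HP (adjusted p = 0.0995 and 0.0898). In pd1245 LP against HP gave -0.22 ± 0.20 (adjusted p = 0.471), and the difference of the diet responses of pd1245 and pd1116 was 0.78 ± 0.28 (adjusted p = 0.201), which was not called. On LP igf1 was called lower in pd1245 than in EK only without replicate 3 of pd1245 on LP (-0.61, adjusted p = 0.0349).

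In experiment 2 igf1 had too few counts to test. The libraries held 6, 0 and 2 counts in EK on HP, 5, 4, 3 and 5 in EK on LP, 9, 4 and 5 in adapted pd1245 on HP, and 7, 5, 2 and 3 in adapted pd1245 on LP. All groups overlapped. The levels of 16 hepatocyte marker genes were summed, liver being a main source of igf1. In experiment 1 the sum was 6144 to 6556 CPM on HP and 6991 to 7746 on LP in EK. It was 6909 to 7832 CPM on HP and 4807 to 5349 on LP for pd1116, and 3781 to 7055 CPM on HP and 3540 to 4053 on LP for pd1245. In experiment 2 the sum was 5877 to 7524 CPM on HP and 5444 to 5998 on LP in EK. For adapted pd1245 it was 4670 to 6349 CPM on HP and 2579 to 5125 on LP. In experiment 1, apoa2 and tfa held the most marker counts, 926403 and 839489, the next being fabp10a with 204206. Every marker had counts in each experiment summed over its libraries, though hpxa, the hemopexin gene, was at 0 in at least 1 library of experiment 1. Of 16 markers tested in pd1116 on LP against HP, 10 were lower and 1 higher (68.8% against 6.79% of all genes), and 5 lower and 1 higher in pd1245 (37.5% against 19.1%). Without replicate 3 of pd1245 on LP the latter were 2 lower and 1 higher (18.8% against 11.6%). ahsg2 fell by 2.16 (SE 0.27, adjusted p = 0.00014) and 2.41 (SE 0.28, adjusted p = 0.000271), and TTR, the thyroid hormone carrier, rose by 2.05 ± 0.28 (adjusted p = 0.0003) and 1.88 ± 0.26 (adjusted p = 0.000691). In EK of experiment 1 the sum was higher on LP than on HP without overlap, while igf1 was lower without overlap and not called. The part of liver content in the igf1 values was not tested.

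In the list of other IGF ligands, receptors and binding proteins, 3 of 18 were higher and 3 lower in pd1245 than in EK on LP. That is 33.3% of the list, near the 31.8% of all genes called. The median log2 fold change was 0.03 against 0.01 over all genes. Leaving out replicate 3 of pd1245 on LP gave 5 higher and 2 lower (38.9% against 27.4% of all genes). IGFALS, the acid-labile subunit that holds IGFs in the circulation, was 1.42 ± 0.317 CPM (SD, n = 3) against 4.43 ± 0.374 (-1.62 ± 0.34, adjusted p = 0.00177; -1.48 without that library, adjusted p = 0.00548). IGFBP3, the main carrier of IGFs in mammals, was lower by 0.40 (log2 fold change -0.40 ± 0.11, adjusted p = 0.00799), and IGF1R (ENSDARG00000034434), a receptor for IGF-1, higher by 0.34 ± 0.09 (adjusted p = 0.00866). In pd1116 on LP against HP, 2 were higher and 2 lower (22.2% of the list against 6.79% of all genes), and without replicate 3 of pd1245 on LP 4 and 5 (50% against 15.2%). STC2, stanniocalcin 2, rose by 0.76 ± 0.16 (adjusted p = 0.00891), and IGFBP3 fell by 0.51 (SE 0.10, adjusted p = 0.0064). In adapted pd1245, STC2 was the 1 gene of 16 called, 6.25% against 1.88% of all genes (0.96 ± 0.24, adjusted p = 0.0441).

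igfbp1a and igfbp1b, the paralogues of binding protein 1, were both higher on LP than on HP in pd1116 and higher in pd1245 than in EK on LP. igfbp1a was 202, 126 and 118 CPM in EK on HP and 181, 196 and 229 in EK on LP. In pd1116 it was 185, 114 and 80.8 CPM on HP and 188, 294 and 270 on LP, and in pd1245 156, 272 and 192 on HP and 274, 353 and 428 on LP. The diets did not overlap in either mutant, by a narrow margin in both, and overlapped in EK.

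igfbp1a rose 1.98-fold on LP in pd1116 (0.99 ± 0.27, adjusted p = 0.0359), and was 1.74-fold higher in pd1245 than in EK on LP (0.80 ± 0.27, adjusted p = 0.0315). In pd1245, LP against HP gave 0.77 ± 0.27 and did not pass (adjusted p = 0.0545), but passed with no filter (adjusted p = 0.043) and in 5 of the fits that left out 1 library. Those were replicate 1 of EK on HP (adjusted p = 0.0455), replicates 1 and 3 of pd1116 on HP (0.0348 and 0.0407), replicate 2 of pd1245 on HP (0.0286) and replicate 1 of pd1245 on LP (0.0295). The pd1116 call was lost without replicate 2 or 3 on HP (adjusted p = 0.121 and 0.175) or on LP (adjusted p = 0.124 and 0.113), and with a replicate block (adjusted p = 0.0532). The call against EK was lost without replicate 1, 2 or 3 of EK on LP (adjusted p = 0.109, 0.0913 and 0.0506), or replicate 2 or 3 of pd1245 on LP (adjusted p = 0.0611 and 0.105). Without replicate 3 of pd1245 on LP it was 0.63.

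igfbp1b was 114, 78.6 and 88.8 CPM in EK on HP and 94.9, 98.7 and 111 in EK on LP. In pd1116 it was 129, 103 and 91.8 CPM on HP and 126, 220 and 183 on LP, and in pd1245 72.7, 115 and 94.7 on HP and 145, 193 and 215 on LP. In pd1245 the diets did not overlap, while in pd1116 replicate 1 on LP lay within the range on HP. Between EK and pd1245 on LP there was no overlap.

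igfbp1b rose 1.95-fold on LP in pd1245 (0.97 ± 0.20, adjusted p = 0.00496; 0.84 without replicate 3 of pd1245 on LP, adjusted p = 0.0161), and that call too was lost in the fit of only those groups (adjusted p = 0.099). Against EK on LP it was 1.81-fold higher in pd1245 (0.86 ± 0.20, adjusted p = 0.00405; 0.73 without that library, adjusted p = 0.0149), which held under every alternative tried. In pd1116 it rose by 0.71 ± 0.20 (adjusted p = 0.0416) against HP and was higher by 0.80 ± 0.20 (adjusted p = 0.0227) against EK on LP. The first was lost with a replicate block (adjusted p = 0.0607) and without any 1 of 9 libraries: replicate 3 of EK on HP (adjusted p = 0.0521), replicates 1, 2 and 3 of EK on LP (0.0555, 0.0566 and 0.0548), replicates 2 and 3 of pd1116 on HP (0.124 and 0.181) and on LP (0.192 and 0.122), and replicate 3 of pd1245 on HP (0.0507). The second was lost without replicate 1, 2 or 3 of EK on LP (0.0928, 0.0894 and 0.0526) or 2 or 3 of pd1116 on LP (0.126 and 0.0806).

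In experiment 2 igfbp1b rose 4.50-fold on LP in adapted pd1245 (2.17 ± 0.43, adjusted p = 0.0158), the largest change of a member past the threshold in that experiment. Its level was 10.6, 24.8 and 12.3 CPM on HP and 66.1, 60.5, 43.3 and 117 on LP, with no overlap. In EK it was 35.2, 32.8 and 40.6 CPM on HP and 39.3, 139, 55.8 and 37.5 on LP, with overlap (0.90 ± 0.41, adjusted p = 0.415). The adapted line on HP lay below EK on HP without overlap, a log2 fold change of -1.19 ± 0.45 that did not pass (adjusted p = 0.241). The call of the diet response was lost without replicate 1 or 3 of adapted pd1245 on HP (adjusted p = 0.129 and 0.0836) or replicate 4 on LP (adjusted p = 0.0514).

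igfbp1a in experiment 2 did not pass in either line. It was 423, 449 and 506 CPM in EK on HP and 324, 515, 412 and 313 on LP, and 344, 212 and 274 CPM in adapted pd1245 on HP and 368, 471, 345 and 647 on LP. LP lay above HP in the adapted line, with a log2 fold change of 0.73 ± 0.22 that did not pass in edgeR (adjusted p = 0.0823) and passed in DESeq2 (adjusted p = 0.0311). In EK it was -0.23 ± 0.21 (adjusted p = 0.718), and adapted pd1245 on HP was below EK on HP without overlap (-0.73 ± 0.23, adjusted p = 0.148).

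**Figure D3:**
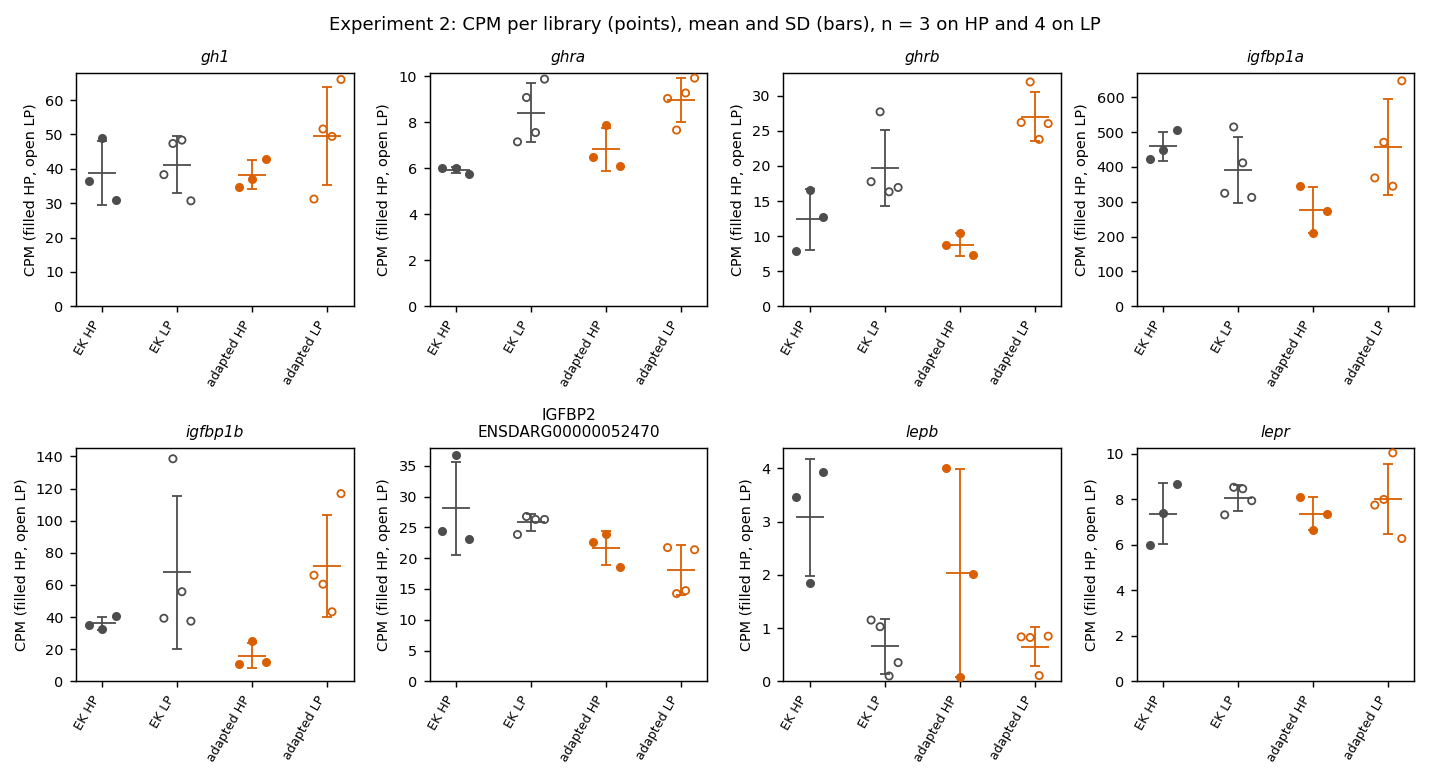
Each panel plots CPM per library (points, filled on HP and open on LP) for 1 gene in the 4 groups of experiment 2, with the mean and SD as bars. ghrb and igfbp1b on LP lie above HP in the adapted pd1245 line without overlap, and lepb is low and scattered.

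The 2 genes named IGFBP2 were both lower in pd1245 than in EK on LP. ENSDARG00000052470 was 30.0, 25.8 and 26.8 CPM in EK on HP and 27.4, 29.3 and 27.0 on LP, 30.3, 32.0 and 31.4 in pd1116 on HP and 19.0, 22.9 and 18.8 on LP, and 19.9, 16.4 and 26.2 in pd1245 on HP and 13.7, 13.8 and 10.8 on LP. Levels in pd1116 and pd1245 on LP lay below both EK groups. It was 2.18-fold lower in pd1245 than in EK on LP (-1.12 ± 0.14, adjusted p = 4.15e-05; -1.03 without replicate 3 of pd1245 on LP, adjusted p = 7.8e-05). It fell on LP in pd1116 (-0.63 ± 0.14, adjusted p = 0.00963) and in pd1245 (-0.70 ± 0.14, adjusted p = 0.00366; -0.60 without replicate 3 on LP, adjusted p = 0.0116). The pd1116 call was lost without replicate 3 of pd1116 on LP (adjusted p = 0.0563), and the pd1245 call in the fit of only those groups (adjusted p = 0.13). The difference of the diet responses of pd1245 and EK was -0.72 ± 0.19 (adjusted p = 0.0376), lost with a replicate block (adjusted p = 0.0577), in the fit of only those groups (0.0918), and without any 1 of replicates 2 and 3 of EK on HP (0.0859 and 0.0649), 1, 2 and 3 of EK on LP (0.0575, 0.0928 and 0.0677), 1 and 2 of pd1116 on HP (0.0507 each) and 1 and 3 of pd1245 on HP (0.05 and 0.109). With replicate 3 of pd1245 on LP left out it was -0.63 (adjusted p = 0.0497).

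ENSDARG00000052470 was also lower in pd1245 than in pd1116, by a log2 fold change of -0.58 ± 0.14 on HP (adjusted p = 0.0081) and -0.66 ± 0.14 on LP (adjusted p = 0.00441; -0.56 without replicate 3 of pd1245 on LP, adjusted p = 0.0152). The first was lost without replicate 2 of pd1245 on HP (adjusted p = 0.053), and the second in the fit of only those groups (adjusted p = 0.0558). It was lower in pd1116 than in EK on LP by -0.47 ± 0.14 (adjusted p = 0.0465), which was lost with a replicate block (0.069) and in 11 of the fits that left out 1 library, with adjusted p from 0.0559 to 0.175. Those libraries were replicates 2 and 3 of EK on HP, 1, 2 and 3 of EK on LP, 1, 2 and 3 of pd1116 on HP, 1 and 3 of pd1116 on LP, and 1 of pd1245 on HP. Adapted pd1245 in experiment 2 was 22.7, 23.9 and 18.6 CPM on HP and 21.7, 14.3, 14.7 and 21.4 on LP, a log2 fold change of -0.26 ± 0.18 (adjusted p = 0.429).

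ENSDARG00000031422 was 18.7, 21.2 and 26.5 CPM in EK on HP and 20.7, 21.8 and 19.3 on LP, 27.4, 27.3 and 33.8 in pd1116 on HP and 23.8, 19.2 and 23.2 on LP, and 14.7, 9.44 and 17.01 in pd1245 on HP and 8.12, 8.84 and 1.86 on LP. All pd1245 libraries lay below every library of EK and pd1116. Replicate 3 of pd1245 on LP was the lowest of all. The gene was 3.19-fold lower than in EK on LP (-1.67 ± 0.31, adjusted p = 0.000686; -1.28 without that library, adjusted p = 0.000142) and 3.42-fold lower than in pd1116 (-1.77 ± 0.31, adjusted p = 0.000972; -1.38 without it, adjusted p = 0.000113), the second call being lost in the fit of only those groups (adjusted p = 0.0665). It fell on LP in pd1245 (-1.09 ± 0.31, adjusted p = 0.0213; -0.70 without replicate 3 on LP, adjusted p = 0.0253), a call lost in the fit of only those groups (adjusted p = 0.208) and without replicate 1 or 3 of pd1245 on HP (adjusted p = 0.0564 and 0.108). On HP it was lower in pd1245 than in pd1116 (-1.10 ± 0.29, adjusted p = 0.0175), a call lost without replicate 3 of pd1116 (adjusted p = 0.0776) or replicate 2 of pd1245 (adjusted p = 0.095). Against EK on HP, pd1245 was called lower only without replicate 3 of pd1245 on LP (-0.68, adjusted p = 0.0109). The share of all genes called there rose from 4.16% to 9.43%. In experiment 2 it held 0 to 6 counts per library and was not tested. The hepatocyte marker sums of experiment 1 given with igf1 were lower in pd1245 on LP than in EK, as both genes were. In EK of experiment 1 the sum was higher on LP than on HP without overlap, while both genes overlapped between the diets. Over libraries, ENSDARG00000052470 had a Pearson correlation with the hepatocyte marker ahsg2 of 0.974 in experiment 1 and 0.793 in experiment 2. The genes most like ENSDARG00000031422 in experiment 1 were those of dividing cells, mki67, kif11 and TOP2A (0.972, 0.971 and 0.966). The parts of liver content and of dividing cells were not tested.

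lepb, one of the 2 leptin genes, was rare and spread widely between libraries, so raw counts are given. In experiment 1 the libraries held 88, 31 and 12 counts in EK on HP and 6, 3 and 2 on LP, 3, 5 and 5 in pd1116 on HP and 32, 7 and 48 on LP, and 4, 0 and 8 in pd1245 on HP and 15, 33 and 117 on LP. The order of the diets was thus reversed: LP lay below HP in EK and above it in both mutants, without overlap in any of the 3. In pd1245, 117 of the 165 counts on LP were in replicate 3, which stood apart.

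lepb was 17.4-fold higher in pd1245 than in EK on LP (4.12 ± 1.00, adjusted p = 0.00462; 2.62 without replicate 3 of pd1245 on LP, adjusted p = 0.0392). LP against HP in pd1245 gave 4.10 ± 0.98 (adjusted p = 0.00945), lost without that library (2.60, adjusted p = 0.0659) and in the fit of only those groups (adjusted p = 0.12). The difference of the diet responses of pd1245 and EK was 7.60 ± 1.42 (adjusted p = 0.00765; 6.09 without that library, adjusted p = 0.00735). That of pd1116 and EK was 6.34 ± 1.47 and did not pass (adjusted p = 0.147), as did neither EK on LP against HP (-3.50 ± 1.03, adjusted p = 0.256) nor pd1116 on LP against HP (2.84 ± 1.04, adjusted p = 0.108). With counts this low, a fitted fold change depends on the prior count and is no bound. On HP, pd1116 and pd1245 lay below EK, with log2 fold changes of -3.36 ± 0.99 and -3.48 ± 1.01, neither past the threshold in edgeR (adjusted p = 0.0838 and 0.0597) and both past it in DESeq2 (adjusted p = 0.0376 and 0.0183).

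Replicate 3 of pd1245 on LP also bore on lepb comparisons that do not contain it, in a fit where all groups share 1 estimate of the spread. With it left out, lepb was called on LP against HP in EK (adjusted p = 0.0453) and in pd1116 (0.0212). It was then also called in pd1116 against EK on HP (0.0109) and on LP (0.0219), in pd1245 against EK on HP (0.00709), and for the difference of the diet responses of pd1116 and EK (0.0197). Both pd1116 and pd1245 against EK on HP were also called without replicate 3 of EK on HP (0.0477 and 0.0376) or replicate 1 of pd1245 on LP (0.0448 and 0.0325).

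In experiment 2, the mean of lepb was lower on LP than on HP in both lines. Its counts were 34, 8 and 43 in EK on HP and 14, 13, 1 and 4 on LP, and 42, 1 and 23 in adapted pd1245 on HP and 11, 10, 1 and 10 on LP. These counts overlapped between the diets in EK, where the 8 counts on HP came from replicate 2, a library of only 3713048 gene counts. In CPM, LP lay below HP in EK without overlap, at 0.101 to 1.15 against 1.85 to 3.93. The log2 fold change there was -2.23 ± 0.66 (edgeR adjusted p = 0.188). In the adapted line the diets overlapped (-1.54 ± 0.68, adjusted p = 0.219, and -2.12 without replicate 2 on HP, adjusted p = 0.0426). The difference of the diet responses was 0.69 ± 0.98 (adjusted p = 0.912). The adapted line is a pd1245 line, and whether it differs from the pd1245 of experiment 1 cannot be told apart from the change of experiment and library protocol.

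lepa, the other leptin gene, had 22 counts over the 3 libraries of EK on HP, 9 in EK on LP, 6 in pd1116 on HP, 22 in pd1116 on LP, 19 in pd1245 on HP and 35 in pd1245 on LP, of which 29 were in replicate 3. It was called in no comparison. On LP, pd1245 against EK gave a log2 fold change of 2.12 ± 1.02 (edgeR adjusted p = 0.119), which passed without replicate 1 of pd1245 on LP (2.76, adjusted p = 0.017) and was -0.05 without replicate 3 (adjusted p = 0.978). Adapted pd1245 had 0 counts on both diets and EK had 1 on each, all at or below the 3 counts that a total of 0 allows, so no fold is given.

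lepr, the leptin receptor, differed in 1 comparison only, pd1245 against EK on LP. It was 28.9, 31.1 and 32.3 CPM in pd1245 and 26.4, 23.5 and 26.7 in EK (log2 fold change 0.27 ± 0.09, adjusted p = 0.0254). The groups did not overlap, but the call was lost without replicate 1 or 2 of EK on LP (adjusted p = 0.0516 and 0.136), without replicate 2 or 3 of pd1245 on LP (adjusted p = 0.0643 and 0.0622), in the fit of only those groups (adjusted p = 0.111) and with no filter (adjusted p = 0.0562). In experiment 2 its means were 7.36 ± 1.34 CPM (SD, n = 3) in EK on HP, 8.06 ± 0.562 (n = 4) in EK on LP, 7.37 ± 0.726 (n = 3) in adapted pd1245 on HP and 8.01 ± 1.55 (n = 4) on LP, with all groups overlapping.

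**Figure D4:**
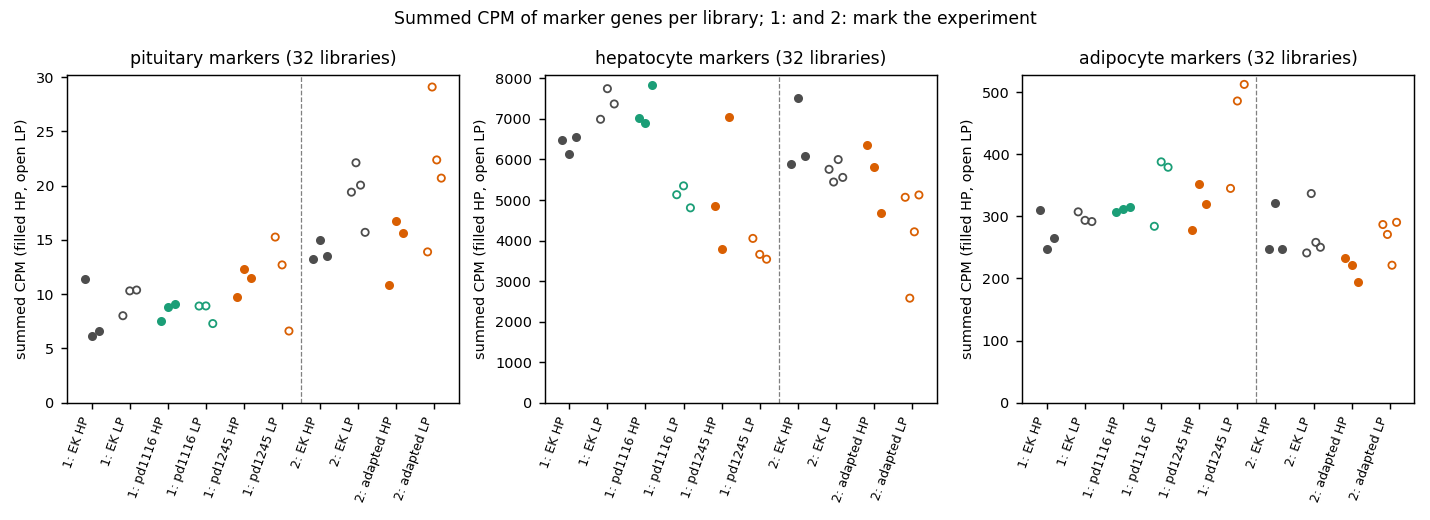
Each panel plots the summed CPM of the marker genes of a cell type per library (points, filled on HP and open on LP) in the 10 groups, with experiment 1 left of the dashed line. The hepatocyte sum in pd1245 on LP is 3540 to 4053 CPM and lies below every library of EK in experiment 1.

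Adipocyte markers moved in both directions beside lepb. The sum of 8 markers was 292 to 307 CPM in EK on LP and 345 to 512 in pd1245 on LP, with no marker at 0 over all libraries of an experiment. In experiment 1, cfd and LPL (ENSDARG00000087697) held the most marker counts, 70186 and 61285, the next being CIDEC with 6114. Of 7 tested 1 was higher and 2 lower (42.9% against 31.8% of all genes), and without replicate 3 of pd1245 on LP 3 and 2 (71.4% against 27.4%). LPL (ENSDARG00000087697), lipoprotein lipase, was 318 ± 90.0 CPM (SD, n = 3) against 88.8 ± 16.9 (1.84 ± 0.26, adjusted p = 8.8e-05; 1.68 without that library, adjusted p = 0.000198). cfd, adipsin, was lower by 0.88 (log2 fold change -0.88 ± 0.11, adjusted p = 4.77e-05) and ADIPOQ (ENSDARG00000100086), adiponectin, by 1.49 (log2 fold change -1.49 ± 0.28, adjusted p = 0.000921). The mean sum was 297 CPM in EK on LP and 448 in pd1245 on LP. That rise was smaller than the rise of LPL (ENSDARG00000087697) by itself, so the other markers, summed, were lower in pd1245. The part of the adipocyte markers in the lepb values was not tested.

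In the 3 remaining lists, the share called in pd1245 against EK on LP is read against the 31.8% of all genes called. In the FoxO and glucocorticoid list 4 of 13 genes tested were higher and 0 lower (30.8%, median log2 fold change 0.21), with FOXO1 (ENSDARG00000099555), the transcription factor that induces igfbp1 in mammals, higher by 0.61 ± 0.10 (adjusted p = 0.00034) and FOXO4 by 0.44 ± 0.10 (adjusted p = 0.00297). FOXO1 (ENSDARG00000099555) was the 1 gene of that list called for the difference of the diet responses of pd1245 and EK, 1.01 ± 0.14 (adjusted p = 0.00426), which is 7.69% against 5.7% of all genes. There were 3 without replicate 3 of pd1245 on LP (23.1% against 5.96%). In the hypoxia response list 6 of 20 were higher and 2 lower (40%, median 0.18), with PDK1 at 1.06 ± 0.13 (adjusted p = 2.84e-05) and BNIP3 at 0.72 ± 0.14 (adjusted p = 0.00103). In the integrated stress response list 5 of 14 were higher and 3 lower (57.1%, median 0.20), with TRIB3 at 1.34 ± 0.20 (adjusted p = 0.000152) and PHGDH at -0.54 ± 0.14 (adjusted p = 0.00616). Over all genes the median was 0.01. Without replicate 3 of pd1245 on LP, where 27.4% of all genes were called, 5 FoxO genes were higher (38.5%), and of the hypoxia genes 5 were higher and 2 lower (35%). In the integrated stress response list 1 was then higher and 2 lower (21.4%, median 0.03). TRIB3 was called at 0.99 (adjusted p = 0.000192), and the calls of atf4a, atf4b, ATF3, sesn2 and ASNS, named here after their values were seen, were lost (adjusted p = 0.238, 0.394, 0.131, 0.0913 and 0.0574). PDK1 was 1.00 (adjusted p = 4.28e-05), and FOXO1 (ENSDARG00000099555) was 0.57 (adjusted p = 0.000653). In adapted pd1245 on LP against HP, 1 of 11 genes of the FoxO list was called (9.09% against 1.88% of all genes), FOXO4 at 0.73 ± 0.18 (adjusted p = 0.0427).

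Across the 18 libraries of experiment 1, the genes most like the members in log2 CPM were taken from 16074 candidates, as a description over libraries that share groups. ghrb was most like CALCOCO1, with a Pearson correlation of 0.971 (0.882 over the 14 libraries of experiment 2). ADCY3 and ATP8B4 followed at 0.962 each and had no value in experiment 2. ghra was most like CDC42BPA, DOCK5 and RELA (0.943, 0.942 and 0.934). In experiment 2 CDC42BPA gave 0.315, DOCK5 gave -0.0949 and RELA had no value. gh1 was most like slc36a4, ABHD2 and spint2 (0.79, 0.784 and 0.764, and 0.56, 0.297 and 0.685 in experiment 2). igfbp1b was most like tdh, MKNK2 and akt1s1 (0.918, 0.909 and 0.9, and 0.821, 0.898 and 0.846 in experiment 2). ENSDARG00000031422 was most like mki67, kif11 and TOP2A, genes of dividing cells (0.972, 0.971 and 0.966). ENSDARG00000052470 was most like MARCKS, the hepatocyte marker ahsg2 and GMFB (0.978, 0.974 and 0.969, and -0.0391, 0.793 and 0.573 in experiment 2). For lepb the most alike genes of experiment 1, leng9, RIOK3 and RIMKLA (0.909, 0.878 and 0.87), gave -0.169, -0.0892 and -0.0329 in experiment 2. For lepr they were ZNF532, ptp4a3b and RFX1 (0.9, 0.881 and 0.865, and -0.132, 0.271 and 0.297 in experiment 2). For igfbp1a they were PDPK1, tcnbb and CCSAP (0.923, 0.911 and 0.907). In experiment 2 PDPK1 gave 0.509, tcnbb gave 0.272 and CCSAP had no value. For igf1 they were CTHRC1, ucmaa and tgm5l (0.908, 0.907 and 0.904), and for lepa LIAS, MFHAS1 and rims2b (0.837, 0.792 and 0.791). The pairs of igf1 and lepa with these genes had no value in experiment 2.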

How the data were processed

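Whole larvae were sequenced in 32 libraries of 10 groups. Per the submitters' processing notes, reads were aligned to GRCz11 with STAR 2.7.3a and counted with HTSeq 0.11.1 in experiment 1, and aligned with STAR 2.7.11 and counted with featureCounts of Subread 2.1.1 in experiment 2. The annotation release, the strand setting and the handling of molecular identifiers are not given in the sources used here. The deposited counts of experiment 1 are raw reads per gene; rows that name no gene held 14.62 to 16.76% of reads and were left out. The deposited expected counts of experiment 2 are partly fractional for a reason not given, with 78.32 to 84.85% of values above 0 whole within 0.005, and were rounded. A total of 28 columns of other per-sample values and 92 spike-in rows were not used.

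Each experiment was fitted in R 4.3.3 with edgeR 4.0.16: all groups in 1 fit, TMM scaling, filterByExpr, the 2-sided quasi-likelihood F test, and Benjamini-Hochberg adjustment over all genes tested at 0.05. The biological coefficient of variation, 1 value shared by all genes tested and beyond counting noise, was 12.5% in experiment 1 and 16.0% in experiment 2. Single genes differed from it. Low counts limit precision most for lepa, lepb and, in experiment 2, igf1, and for lepb the spread between libraries does too. SE is that of the fitted log2 fold change. Alternatives were other scalings, no filter, a strict filter, DESeq2 1.42.0, a block for replicate number, fits of the compared groups alone, and each library left out in turn. Replicate numbers did not pair libraries: in experiment 1, 0 of 15 pairs of groups had every same-number correlation above 0.1, and in experiment 2 it was 0 of 6.

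IGFBP1 was taken as igfbp1a through the RefSeq synonym igfbp1. Members, gene lists and marker lists were chosen with earlier results of these data known. Of each list, genes were named from the up to 3 called with the smallest p in a comparison, and for each member the 3 genes most correlated with it over the 18 libraries. Genes sharing a symbol are given with identifiers, except STC2, and IRS2 where LP is set against HP. Whether the same gene recurs in those results is not stated. Paralogous pairs may share reads, and how such reads were counted is not given.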

Additional observations from a re-analysis of the deposited data

Results flagged for a closer look

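In experiment 2, 4 values, in 3 libraries, lay apart from the others of their group of 4, among 20 groups of 4 values examined. Chance picks out about 1 in 20 where values are normally distributed, which very low counts are not. ghrb in replicate 2 of EK on LP was 27.7 CPM, the highest of its group. In replicate 1 of EK on LP, ENSDARG00000031422 was the highest at 0.493 CPM and ENSDARG00000052470 the lowest at 23.8 CPM. All 6 counts of ENSDARG00000031422 in that group were in that library. lepb in replicate 3 of adapted pd1245 on LP was the lowest at 0.109 CPM, which is 1 count.

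In experiment 1 the diet response of pd1245 differed from that of EK, by the edgeR test of the difference itself, for ghrb (log2 1.14, adjusted p = 0.0186), ENSDARG00000052470 (log2 -0.72, adjusted p = 0.0376) and lepb (log2 7.60, adjusted p = 0.00765).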

How the results depend on the processing

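Of 3915 values of genes recomputed under alternatives, 3775 kept their side of the threshold, 97 lost and 43 gained the call, and 0 changed direction while called. Of the 3775, 83 that were not called changed sign. The number of members called moved as follows, the cause not being tested. The share of all genes called in the same fits is not given beside these numbers, so they do not single out the members. With no filter, with DESeq2 and with only the groups compared, pd1116 against EK on HP went from 0 to 1, and pd1245 against EK on HP from 1 to 2. With a replicate block the latter was also 2, and LP against HP in pd1116 went from 4 to 2. With only the groups compared, LP against HP in pd1245 went from 3 to 0, and the difference of diet responses of pd1116 and EK from 0 to 2. With a strict filter, the difference for pd1245 and EK went from 2 to 1. Replicate numbers did not pair the libraries.

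Leaving out 1 library gave 0 to 1 for LP against HP in EK, 1 to 6 in pd1116 and 2 to 4 in pd1245 of experiment 1. For pd1116 against EK it gave 0 to 1 on HP and 0 to 3 on LP. For pd1245 against EK it gave 0 to 2 on HP and 3 to 6 on LP, and against pd1116 1 to 3 on HP and 1 to 2 on LP. For the difference of diet responses it gave 0 to 1 for pd1116 and 1 to 3 for pd1245 against EK, and in adapted pd1245 LP against HP gave 1 to 3. The share of all genes called moved too. Without replicate 3 of pd1245 on LP, for LP against HP, it rose from 6.79% to 15.2% in pd1116 and fell from 19.1% to 11.6% in pd1245. These ranges are therefore not read as a result about the members. Low counts limit lepa and lepb, which were mostly under 50 per library, and igf1 in experiment 2. For lepb the spread between libraries of similar depth limits it too, with 12 to 88 counts in EK on HP of experiment 1.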
